A study of Mus musculus with 2 samples.

Results

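The genes of the MHC class II pathway were described cell by cell in tumours of KPPC mice, an engineered model of pancreatic cancer, that received vehicle or the kinase inhibitor Takinib. The set was chosen by gene symbol and holds 10 of the 32285 genes measured: H2-Aa, H2-Ab1, H2-Eb1, Cd74, H2-DMa, H2-DMb1, H2-DMb2, H2-Oa, H2-Ob and Ciita. All 10 were found in both libraries. Mice were 6 weeks old and were dosed for 14 days, with vehicle or with Takinib at 50 mg/kg. Takinib is known as an inhibitor of the kinase TAK1. Both groups share the KPPC genotype, and the labels do not spell out its alleles or the promoter that drives Cre. Each group is 1 library of dissociated tumour cells from droplet single-cell RNA-seq, and the labels do not say how many animals went into each. With 1 library per group no difference has a replicate check, so no test was made and no p-value is given. Intervals cover counting error only, at the 95% level, and those of levels and shares are exact.

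MHC class II molecules are surface heterodimers that show peptides from engulfed proteins to CD4 T cells, and dendritic cells, B cells and macrophages are the cells best known for carrying them. H2-Aa and H2-Ab1 encode the alpha and beta chains of I-A, and H2-Eb1 the beta chain of I-E. Cd74, the invariant chain, fills the peptide groove on the way to the endosome, where H2-DM (H2-DMa with H2-DMb1 or H2-DMb2) swaps its remnant for peptide and H2-DO (H2-Oa with H2-Ob) restrains H2-DM. Ciita is the co-activator that these genes depend on. It does not bind DNA itself but docks on RFX, CREB and NF-Y proteins seated on neighbouring X and Y boxes upstream of class II genes.

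Because Ciita acts through those boxes, the promoters of the members were read for their core letters. RefSeq promoters (GRCm38.p6, 250 bases before to 50 bases after the start) matched 7 of the 10 members. The letters ACNNATG (X core) and ATTGG (Y core) were searched on both strands. The ACNNATG letters were chosen after these promoters had been seen. ACNNATG occurs in 30.2% and ATTGG in 37.4% of all 32851 promoters, while ACNNATG followed by ATTGG on the same strand at a distance of 20 to 32 bases occurs in 0.338% (111 promoters). The ordered pair was found in 4 members, H2-Eb1, H2-DMb1, H2-DMb2 and H2-Ob. It started 88, 91, 120 and 84 bases before the RefSeq start, with the cores 29, 30, 30 and 27 bases apart. H2-Aa had ATTGG 48 bases before its start and no ACNNATG. H2-Oa had ATTGG at 43 bases with ACNNATG at 137 and 130, outside the distance searched, and neither H2-DMa promoter held the pair. The pair of H2-DMb1 lies in annotated transcript and its sequence is not shown. The upstream stretches below show the pair in a chain gene, an editor gene and an H2-DO gene, and H2-Aa as the chain gene without it; capitals mark the X and Y cores. The H2-DMb2 stretch lies inside the GENCODE M21 gene model, whose start is further upstream. A match describes letters only, and no binding was measured here.
H2-Eb1 (chr17:34305747-34305866, plus strand): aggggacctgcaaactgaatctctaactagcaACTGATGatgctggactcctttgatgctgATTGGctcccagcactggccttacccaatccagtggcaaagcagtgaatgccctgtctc
H2-DMb2 (chr17:34145109-34145235, plus strand): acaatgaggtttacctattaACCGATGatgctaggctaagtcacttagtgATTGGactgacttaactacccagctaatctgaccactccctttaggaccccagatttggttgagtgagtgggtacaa
H2-Ob (chr17:34238785-34238902, plus strand): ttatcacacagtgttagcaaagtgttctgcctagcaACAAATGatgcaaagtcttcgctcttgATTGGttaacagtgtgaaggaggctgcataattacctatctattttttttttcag
H2-Aa (chr17:34287824-34287943, minus strand): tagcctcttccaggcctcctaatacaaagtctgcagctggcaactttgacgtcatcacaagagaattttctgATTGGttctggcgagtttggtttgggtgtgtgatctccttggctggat

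After filtering, 9558 vehicle and 25183 takinib cells remained, with 42000538 and 119726977 UMIs (unique molecules) and medians of 3556 and 2887 UMIs per cell. The libraries differ in ways that the treatment labels do not cover. Mitochondrial genes took a median of 8.70% of UMIs in vehicle cells and 1.79% in takinib cells. Vehicle cells with a sex call were of female origin in 1075 cases and of male origin in 3087, so the vehicle library holds cells of both sexes, while no takinib cell was of male origin (14324 female). Before doublet removal the libraries shared 400 cell barcodes, 4.05% of the 9872 vehicle cells, the smaller library. Cells fell into macrophage-like (4930 vehicle and 6486 takinib), dendritic-like (116 and 91), B-like (213 and 669), epithelial-like (1745 and 1803) and other classes, clustered without the 10 members. The lists of markers behind these names summed to 23359 and 13380 CPM in macrophage-like cells (12 genes, 0 at zero), 2046 and 1895 in dendritic-like (10 genes, 1 at zero in each library) and 5162 and 5321 in B-like cells (8 genes, 0 at zero). Tumour epithelium was present, with Krt7 and Krt18 among the leading genes of a cluster of 808 and 752 cells. There were 279 neutrophil-like cells in vehicle against 12587 in takinib, and neutrophil marker RNA also stood in other classes: the 10 listed markers summed to 407 and 7954 CPM (counts scaled to the class total of the library) in macrophage-like cells, with none at zero. In dendritic-like cells they summed to 57.6 and 2568 CPM and in B-like cells to 92.7 and 3852. Their part in the results was not tested. To compare shares of positive cells across depths, each cell was thinned to 1000 UMIs.

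Dendritic-like, B-like and macrophage-like cells were the main carriers of class II RNA, and the order changed between the libraries. H2-Aa, H2-Ab1, H2-Eb1 and Cd74 were summed per cell as the class II sum. In vehicle it was 33950 CPM [33368, 34539] in dendritic-like cells, 16457 [16403, 16511] in macrophage-like, 15535 [15170, 15907] in B-like and 13276 [12845, 13718] in monocyte-like cells. Fibroblast-like cells held 1746, neutrophil-like 1136 [1033, 1247] and epithelial-like 694 CPM. T-like cells had an interval from 876 to 1083, which overlaps that of neutrophil-like cells. Endothelial-like cells at 623 [589, 660] and perivascular-like cells at 577 [546, 610] lay lower, with intervals that overlap each other. In takinib the order was dendritic-like at 40893 CPM [40282, 41511], B-like at 16484 [16257, 16713], plasma-like at 5176 [5093, 5261], macrophage-like at 2784 [2769, 2799] and monocyte-like at 2601 [2552, 2651]. Macrophage-like cells thus stood next to B-like cells in vehicle and below plasma-like cells in takinib. Vehicle plasma-like cells held 2484 CPM in only 25 cells, and the identity of the takinib plasma-like cells is not settled, as described below. Over all kept cells the class II sum was 9395 CPM in vehicle and 1760 in takinib. These values over all cells move with the mix of cell types as well as with the level per cell.

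**Figure D1:**
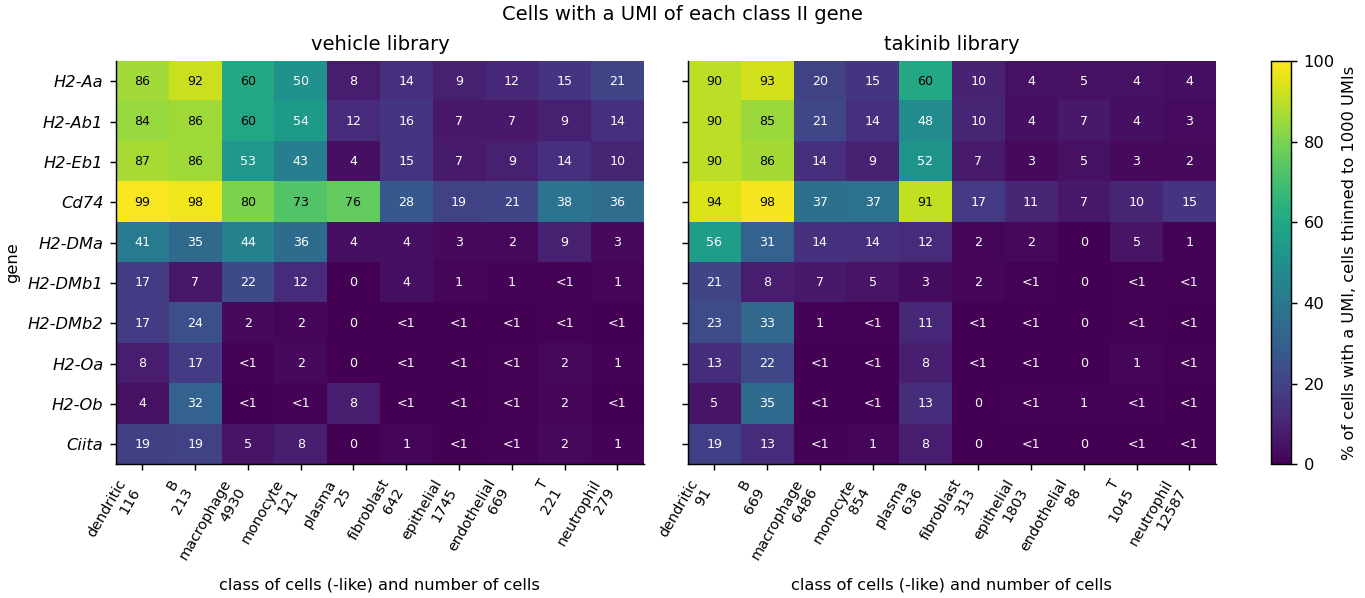
Share of cells (%) with at least 1 UMI of each of the 10 members after thinning each cell to 1000 UMIs, by cell class and library. H2-Oa, H2-Ob and H2-DMb2 are highest in B-like cells, and the macrophage-like share for Cd74 is 80.2% in vehicle and 36.9% in takinib.

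In macrophage-like cells all 10 members had lower CPM in takinib than in vehicle, and 7 lay below -1 on the log2(CPM + 10) scale, where 1.21% of the 11951 genes compared did. Their median was -1.92, against -0.01 for all those genes, and they ranged from -2.69 to -0.05. The added 10 keeps any gene under 10 CPM in vehicle from reaching -1. This held for H2-Oa (5.48 CPM) and H2-Ob (2.97 CPM). The share of all genes can include such genes too, here and beside the later counts below -1. H2-Aa (chromosome 17, 34282744 to 34287823, minus strand, GRCm38) had 2800 CPM in vehicle and 488 in takinib, a log2 ratio of -2.50 [-2.52, -2.47]. H2-Ab1 (chromosome 17, 34257689 to 34269419) had 2823 and 429 CPM, a log2 ratio of -2.69. H2-Eb1 (chromosome 17, 34305867 to 34316674) had 1941 and 302 CPM, a log2 ratio of -2.64. The 3 chains were therefore lower by similar factors. For the invariant chain Cd74 the values were 8893 and 1564 CPM, a log2 ratio of -2.50.

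Class II RNA was detected in fewer macrophage-like cells in takinib, and the sum per cell was lower. After thinning, an H2-Aa UMI was seen in 60.2% of vehicle and 19.6% of takinib macrophage-like cells (74.5% and 37.6% unthinned, at median depths of 3932 and 6205.5 UMIs). Free RNA sets a floor for such shares: in neutrophil-like cells, which should lack class II RNA, the H2-Aa share was 20.8% and 3.70% thinned (24.7% and 6.67% unthinned, at medians of 1216 and 1872 UMIs). For Cd74 the macrophage-like share was 80.2% and 36.9% thinned (90.6% and 61.4% unthinned), and the neutrophil-like share 35.8% and 15.1% (44.8% and 26.1% unthinned). The class II sum per thinned macrophage-like cell had a median of 10 UMIs in vehicle and 0 in takinib, and a 90th percentile of 42 and 9. No class II UMI was seen in 15.8% of vehicle and 55.7% of takinib cells, 1 or 2 in 14.7% and 20.8%, and 3 to 9 in 18.0% and 13.8%. At 10 or more, called high here, stood 51.5% [50.1, 52.9] of vehicle and 9.67% [8.96, 10.4] of takinib cells. High is a range cut from a continuous value and not a cell type; 363 vehicle cells (7.36%) and 242 takinib cells (3.73%) had 8 to 11. The largest part of takinib cells thus had none, while the maxima, each from a single cell, were 93 in vehicle and 89 in takinib. Whether this differs from a shift of all cells by a common factor was not tested.

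**Figure D2:**
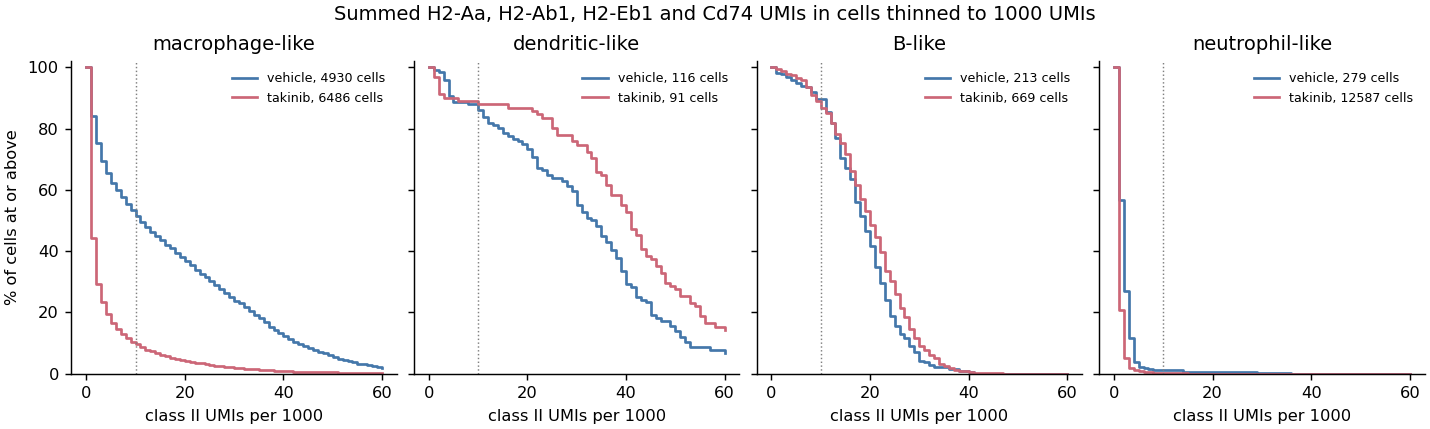
Share of thinned cells (%) with at least the number of class II UMIs per 1000 on the x axis, by class and library. The macrophage-like curves are far apart at 10 UMIs (51.5% and 9.67%), while at that level the dendritic-like (86.2% and 87.9%) and B-like values (89.7% and 86.7%) are near each other; at 40 UMIs dendritic-like cells stand at 29.3% in vehicle and 52.7% in takinib.

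How often the chains and Cd74 were seen in the same cell differed by cell type and library. All 4 genes of the class II sum were detected in the same thinned cell in 44.9% of vehicle and 8.46% of takinib macrophage-like cells, and only 1 of the 4 in 16.1% and 20.2%. In dendritic-like cells the values were 81.0% and 87.9%, and in B-like cells 73.2% and 73.4%. Where only 1 of the 4 was detected, it was Cd74 in 77.9% [74.8, 80.7] of 795 vehicle and 66.4% [63.8, 68.9] of 1309 takinib macrophage-like cells. Relative to the chains, Cd74 had similar weight in both libraries: 118 Cd74 UMIs in vehicle and 128 in takinib per 100 UMIs of the 3 chains. In GENCODE M21, Cd74 (ENSMUSG00000024610) lies on chromosome 18 from 60803848 to 60812652 on the plus strand, apart from the class II region.

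Macrophage-like cells formed 4 clusters, filled unequally by the libraries. The Dcstamp cluster held 80.7% of vehicle and 9.11% of takinib macrophage-like cells, and 5 of its 10 leading genes were members (H2-Ab1, Cd74, H2-Eb1, H2-Aa and H2-DMa), although none was used to cluster. Its other leading genes include the macrophage genes Apoe, C1qa and C1qc. The Ccl8 and Gpnmb cluster held 63 vehicle and 2020 takinib cells, the Chil3 and Ear2 cluster 887 and 1931, and the Saa3 cluster 2 and 1944. The latter 3 have a gene of the monocyte list (F13a1 or Chil3) and none of the macrophage list among their 10 leading genes, so the class values above are given here per cluster too. In the Dcstamp cluster the high share was 60.4% [58.9, 62.0] in vehicle and 34.9% [31.0, 38.9] in takinib. In the Chil3 and Ear2 cluster it was 14.4% and 8.49%, in the Ccl8 and Gpnmb cluster 12.7% [5.65, 23.5] and 9.16%, and in the Saa3 cluster 3.70% in takinib. The Saa3 cluster, with 2 vehicle cells, was not compared. Within each of the other 3 clusters takinib was lower, by less than in the class as a whole. The Ccl8 and Gpnmb interval for vehicle spans the takinib value.

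**Figure D3:**
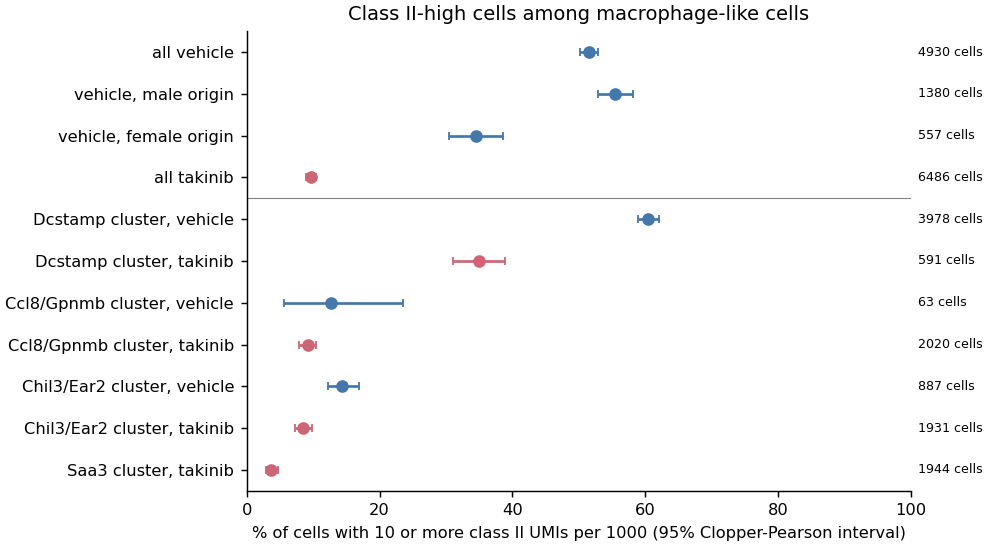
Share of macrophage-like cells (%) with 10 or more class II UMIs per 1000, in the whole class, by cluster and by origin of the vehicle cells, with exact 95% binomial intervals (counting error only). The Dcstamp cluster stands at 60.4% in vehicle and 34.9% in takinib, and the Saa3 cluster of takinib at 3.70%.

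The cluster mix and the level within clusters both entered the class value. The class II sum was 20085 CPM in vehicle and 9629 in takinib in the Dcstamp cluster, a log2 ratio of -1.06 [-1.08, -1.04]. In the Ccl8 and Gpnmb cluster it was 3922 and 2437 (-0.68), and in the Chil3 and Ear2 cluster 3690 and 2455 (-0.59). Of the members, 4 of 10 lay below -1 in the Dcstamp cluster (0.881% of all genes compared). None of 8 did in the Ccl8 and Gpnmb cluster (2.57%) and none of 8 in the Chil3 and Ear2 cluster (0.724%). The member medians were -0.94, -0.35 and -0.53, against -1.92 in the class. With the takinib cluster values weighted by the vehicle mix of the 3 clusters, the high share was 29.8%, against 51.5% in vehicle. With the vehicle values at the takinib mix it was 19.6%, against 12.2% in takinib with the 1944 Saa3 cells left out.

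The origin of the vehicle cells moved with the mix. Of vehicle macrophage-like cells of female origin 34.5% [30.5, 38.6] were high (557 cells), and of male origin 55.4% [52.8, 58.1] (1380 cells). In the Dcstamp cluster lay 37.7% of the female and 88.1% of the male cells, and in the Chil3 and Ear2 cluster 61.6% and 10.6%. Within clusters the origins were nearer: 62.9% and 61.4% high in the Dcstamp cluster, and 16.6% and 11.6% in the Chil3 and Ear2 cluster. Against vehicle cells of female origin alone, 7 of 10 members still lay below -1 in takinib (0.909% of all genes compared) and their median was -1.52. Animal, sex and cluster mix within the vehicle library cannot be told apart.

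The H2-DM genes, which edit the peptide, were lower in takinib macrophage-like cells, and the H2-DO genes were seen in under 1% of thinned cells of either library. H2-DMa (chromosome 17, 34119541 to 34139101) had 635 CPM in vehicle and 152 in takinib, 4.19-fold lower with a log2 interval from -2.04 to -1.96, and was seen in 43.9% and 14.2% of thinned cells. H2-DMb1 (chromosome 17, 34153072 to 34160230) had 276 and 74.6 CPM, a log2 ratio of -1.76. H2-DMb2 (chromosome 17, 34143307 to 34151555) had 23.3 and 9.45 CPM, a log2 ratio of -0.78 [-0.89, -0.67]. H2-DMb1 and H2-DMb2 are near-identical neighbours, so the split of their reads is uncertain. Within the Dcstamp cluster H2-DMa was at 717 and 295 CPM (log2 ratio -1.25) and H2-DMb1 at 314 and 174 (-0.81). H2-Oa (chromosome 17, 34092340 to 34095234) was seen in 0.426% and 0.185% of thinned macrophage-like cells, below the neutrophil-like 1.08% and 0.413%. H2-Ob (chromosome 17, 34238903 to 34254414) was seen in 0.243% and 0.293%, against 0.358% and 0.222%. The H2-Oa shares are read as background, and the intervals of H2-Ob overlap those of neutrophil-like cells ([0.126, 0.425] and [0.00907, 1.98] in vehicle, [0.176, 0.457] and [0.148, 0.321] in takinib). Along the class II level the takinib H2-Ob share was 0.0830% [0.0171, 0.242] at a class II sum of 0 and 1.42% [0.464, 3.29] at 10 to 19, which rests on 3 and 5 positive cells.

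H2-DM RNA was seen also in macrophage-like cells in which no class II UMI was detected. Among such thinned cells H2-DMa was detected in 21.1% of vehicle and 9.36% of takinib cells, and H2-DMb1 in 5.25% and 3.24%. At 20 or more class II UMIs the H2-DMa shares were 64.2% [61.9, 66.4] and 44.9% [39.0, 51.0], and the H2-DMb1 shares 39.2% and 29.0%. Both H2-DM genes were thus seen more often at the higher class II level in each library, and at that level the H2-DMa share was lower in takinib than in vehicle. Neutrophil-like cells had an H2-DMa UMI in 2.51% and 1.06%, below both values at a class II count of 0.

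The proportions of the editor and inhibitor genes differed more between these cell types than between the libraries. H2-DMb2 made up 7.77% [7.13, 8.45] of H2-DMb UMIs in vehicle and 11.3% [10.3, 12.3] in takinib macrophage-like cells. In dendritic-like cells it was 46.9% and 50.8%, in B-like cells 78.5% [70.9, 84.9] and 85.8% [82.5, 88.7], and in takinib plasma-like cells 76.3%. Per 100 H2-DM UMIs, H2-DO UMIs numbered 0.904 and 2.31 in macrophage-like, 10.4 and 20.8 in dendritic-like and 69.9 and 73.9 in B-like cells. High H2-DO in B cells is a textbook trait of that lineage.

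Ciita, the co-activator, was lower in takinib macrophage-like cells by a factor near that of the chains. Ciita (chromosome 16, 10480059 to 10528418, plus strand) had 1156 UMIs in vehicle and 362 in takinib, 53.7 CPM [50.6, 56.8] and 7.94 CPM [7.14, 8.80], and was 6.76-fold lower, where H2-Aa was 5.73-fold lower. On the log2(CPM + 10) scale the Ciita ratio was -1.83 [-1.92, -1.73], since the added 10 shrinks the ratios of low genes. A Ciita UMI was seen in 5.46% [4.84, 6.13] of vehicle and 0.786% [0.586, 1.03] of takinib thinned cells (16.7% and 4.09% unthinned). Neutrophil-like cells had 1.08% and 0.207% (1.43% and 0.397% unthinned), so both macrophage-like shares lie above this floor, in takinib with 51 positive cells. In the Dcstamp cluster Ciita had 64.1 and 30.6 CPM, a log2 ratio of -0.87 [-1.08, -0.66], and in the Chil3 and Ear2 cluster 17.5 and 8.81, a log2 ratio of -0.55.

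Cells with a Ciita UMI carried more class II RNA among macrophage-like cells, and B-like and dendritic-like cells carried it with or without one. The 269 vehicle macrophage-like cells with a Ciita UMI had a median class II sum of 33 per 1000 and 89.6% [85.3, 93.0] were high. The 4661 without had a median of 9 and 49.3% were high. In takinib the 51 cells with a Ciita UMI had a median of 13 and 58.8% [44.2, 72.4] were high, against 0 and 9.28% for the 6435 without. Within the Dcstamp cluster the high share was 91.7% with and 58.3% without in vehicle, and 76.5% [50.1, 93.2] of 17 cells with and 33.6% without in takinib. B-like cells had medians of 18 with and 18 without in vehicle and 22 and 19 in takinib, and in takinib 98.8% (lower bound 93.6%) with and 84.9% [81.8, 87.7] without were high. In vehicle the B-like shares were 97.6% [87.1, 99.9] and 87.8% [81.9, 92.3]. Dendritic-like cells had medians of 39 with and 30 without in vehicle and 41 and 39 in takinib, and every one of the 22 and 17 cells with a Ciita UMI was high, against 83.0% [73.8, 89.9] and 85.1% without. Read from the other side, Ciita was seen in 0.512% of vehicle and 0.0554% of takinib macrophage-like cells with a class II sum of 0, and in 11.5% and 7.61% at 20 or more. Thinning took the vehicle macrophage-like cells with a Ciita UMI from 823 to 269, so a cell without a UMI may still express it.

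Across all cell types the clusters richer in class II RNA were also richer in Ciita. Over 31 clusters of at least 50 cells Spearman's rho of the class II sum and Ciita CPM was 0.87, as a description of clusters that share libraries and depth. On log2(CPM + 10), Pearson's r with the mean of the 3 chains was 0.91 for Ciita, 0.90 for H2-DMa, 0.86 for H2-DMb1, 0.81 for H2-DMb2, 0.70 for H2-Oa and 0.59 for H2-Ob. Among 8276 other genes the most alike were Fgd2 (0.83), Ly86 (0.81), Zmiz2 (0.80), Irf8 (0.80) and Phf11b (0.79). In macrophage-like cells Ly86 had 432 CPM in vehicle and 149 in takinib, and Irf8, a factor of the dendritic and macrophage lineages, had 157 and 103.

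**Figure D4:**
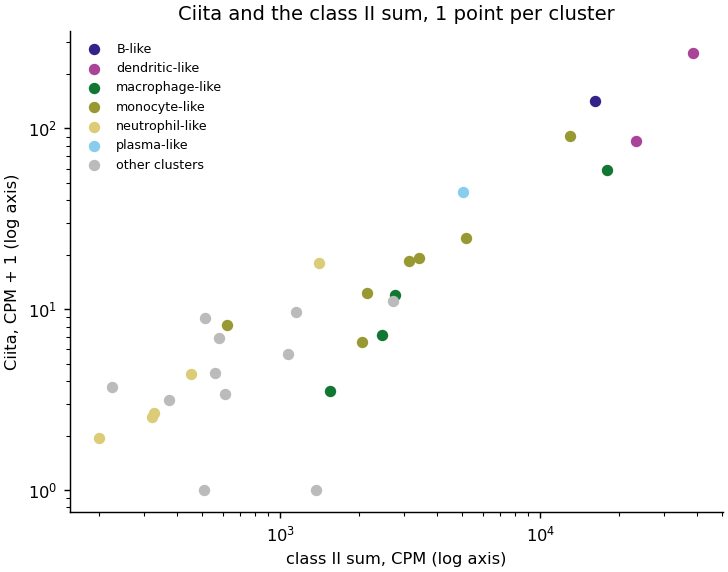
Ciita CPM plus 1 against the class II sum in CPM over 31 clusters, both axes logarithmic, 1 point per cluster with the libraries summed. Clusters with more class II RNA lie higher in Ciita (Spearman's rho 0.87).

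Dendritic-like cells did not share the lower levels: 9 members had enough counts to be compared there, none lay below -1 (5.10% of 1196 genes) and 1 lay above 1 (3.18%). Their median was 0.38, against 0.03 for all genes compared. The takinib library holds 91 of these cells, so the values rest on few cells. The class II sum was 33950 CPM in vehicle and 40893 in takinib (log2 ratio 0.27 [0.24, 0.30]), and 86.2% and 87.9% of cells were high. With called doublets kept, its log2 ratio was -0.18. H2-Aa had 6124 and 8278 CPM, H2-Eb1 4798 and 6687, and Cd74 16643 and 19167. H2-Ab1 had 6386 and 6761 CPM, with an interval of the log2 ratio from 0.00 to 0.16. H2-Oa was the member above 1, with 35 UMIs in vehicle and 87 in takinib, 91.6 and 208 CPM, a log2 ratio of 1.10 [0.59, 1.62]. Ciita had 199 and 283 CPM (0.49 [0.09, 0.89]) and its thinned share had intervals of 12.3% to 27.3% and 11.3% to 28.2%, so the shares did not show the order of the CPM.

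Among dendritic-like cells the Ccr7 and Fscn1 subset had the lowest median class II sum in both libraries. In the Xcr1 and Clec9a subset, the genes of cross-presenting dendritic cells, every cell was high in both libraries (12 and 21 cells), with medians of 49 and 47 class II UMIs. In the Cd209a subset 98.6% of 69 vehicle and 97.8% of 45 takinib cells were high, with medians of 36 and 40. In the Ccr7 and Fscn1 subset, genes of migratory dendritic cells, 57.1% [39.4, 73.7] of 35 vehicle cells were high, and the medians were 11 and 25 (25 takinib cells).

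In B-like cells none of 10 members lay below -1 (1.72% of 3255 genes), 5 were higher and 5 lower, and their median was 0.04, against 0.08 for all genes compared. The class II sum was 15535 CPM in vehicle and 16484 in takinib, a log2 ratio of 0.09 [0.05, 0.12], and 89.7% and 86.7% of cells were high. Its sign turned with the cell filter (-0.18 with at least 2000 UMIs and 1000 genes) and with members among the clustering genes (-0.44), so no direction is given. Ciita had 163 and 133 CPM, with an interval of the log2 ratio from -0.65 to 0.10. H2-DMb2 had 256 and 367 CPM (0.50 [0.22, 0.79]), H2-Oa 170 and 226 (0.39) and H2-Ob 319 and 344 (0.11). Takinib plasma-like cells, 636 against 25 in vehicle, had Cd74 in 90.9% of thinned cells and 35.8% of them were high. Of the 636, 462 were named B-like when members entered the clustering. The 636 together held B markers at 1689 CPM (5321 in B-like cells) and neutrophil markers at 33743 CPM, so their identity is not settled.

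**Figure D5:**
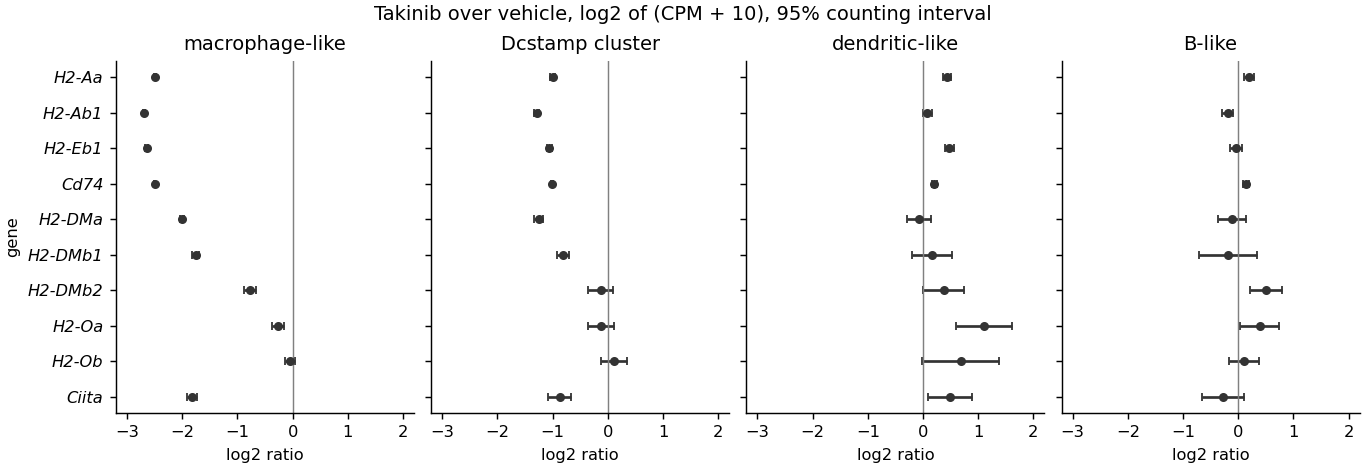
Log2 ratio of takinib over vehicle on log2(CPM + 10) for each member, with 95% counting intervals, in macrophage-like cells, in their Dcstamp cluster, in dendritic-like and in B-like cells. In macrophage-like cells the chains, Cd74, H2-DMa, H2-DMb1 and Ciita lie between -2.69 and -1.76, and in dendritic-like and B-like cells all lie between -0.28 and 1.10.

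In the other 5 classes compared all members with enough counts to be compared were also lower in takinib. The median of all genes compared was -0.32 for neutrophil-like cells, so lower was the usual direction there. Elsewhere it was 0.11 (monocyte-like), -0.02 (T-like), -0.08 (fibroblast-like) and -0.09 (epithelial-like). Intervals of neutrophil-like H2-DMb2 (-0.16 [-0.85, 0.52]) and H2-Ob (-0.26 [-0.94, 0.42]), with 2 vehicle UMIs each, held both signs. So did that of T-like H2-DMa (-0.51 [-1.04, 0.02]). Below -1 lay 7 of 7 members in monocyte-like cells (1.62% of all genes compared), 5 of 10 in neutrophil-like (10.6%), 0 of 5 in T-like (1.64%), 4 of 7 in epithelial-like (1.82%) and 5 of 6 in fibroblast-like cells (6.22%). Macrophage markers summed to 2173 CPM in vehicle and 721 in takinib in neutrophil-like cells, and to 1118 and 599 in T-like cells. In epithelial-like cells they summed to 764 and 442, in fibroblast-like cells to 1897 and 1202, and in monocyte-like cells to 3688 and 3576. The part of macrophage RNA in these ratios was not tested. The monocyte-like cells came from different clusters in the libraries, 120 of the 121 vehicle cells from 1 cluster with 2 takinib cells, so that comparison may be one of cell types. Likewise 255 of the 279 vehicle neutrophil-like cells lay in a Siglecf cluster that held 190 of the 12587 takinib ones. In vehicle, droplets with at least 200 and under 500 UMIs had a class II sum of 2663 CPM, a mean of 0.909 class II UMIs per droplet. Neutrophil-like and T-like cells had means 1.75 and 1.74 times that, epithelial-like cells 5.08 times, fibroblast-like cells 8.07 times, monocyte-like cells 32.6 times and macrophage-like cells 79.1 times. No such droplets were analysed for takinib, whose smallest barcode has 500 UMIs. Against vehicle epithelial-like cells of female origin, 0 of 6 members lay below -1 (2.31%), and the log2 ratio of the class II sum was -0.67 [-0.80, -0.53], against -1.71 with all vehicle cells and -1.64 with those of male origin. Some epithelial-like clusters were filled unequally, such as 1 of 260 vehicle and 42 takinib cells and 1 of 0 and 217. With all vehicle cells, the log2 ratio of the class II sum was -2.07 in the Krt7 and Krt18 cluster and -1.11 in the Tff2 and Reg1 cluster. In fibroblast-like cells it was -1.38 [-1.50, -1.25] against female origin, -1.64 with all vehicle cells and -1.64 against male origin.

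High class II cells were rare among epithelial-like cells. Over the whole class, which pools several clusters, 27 of 1745 in vehicle (1.55%) and 5 of 1803 in takinib (0.277%) were high. In the cluster with Krt7 and Krt18 among its leading genes, 16 of 808 vehicle cells (1.98%) and 2 of 752 takinib cells (0.266%) were high. The 27 held macrophage markers at 8779 CPM, against 469 in vehicle epithelial-like cells with a class II sum under 3, and epithelial markers at 5398 against 16979. In takinib the macrophage markers stood at 7392 and 398 CPM. In fibroblast-like vehicle cells 31 were high, with macrophage markers at 5971 CPM against 1294. Class II expression by these cells themselves was not separated from macrophage RNA in the same droplet.

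Outside the 10 members, nearly all pathway genes lay within 1 unit between the libraries in macrophage-like cells, on the log2(CPM + 10) scale. Of 34 listed genes, all with enough counts, none lay below -1 and 1 lay above 1 (1.98% of all genes compared). It was the lysosomal protease Ctsl, at 699 CPM in vehicle and 1600 in takinib (log2 ratio 1.18 [1.16, 1.21]). A listed gene under 10 CPM in vehicle, such as Rfx5, could not fall below -1 with the added 10, whatever its takinib count. The partners of Ciita on class II promoters stayed within -0.44 and 0.18: Rfx5 had 5.80 and 4.61 CPM (-0.11), Rfxank -0.19, Rfxap 0.18, Creb1 -0.34 and Nfya -0.44. The interferon-gamma receptor gene Ifngr1, upstream of Ciita, had 232 and 257 CPM, and Irf1, a transcription factor induced by interferon, 30.6 and 34.9. The lineage factors Irf8 and Irf4 had ratios of -0.56 and -0.61. Without the added 10, Irf4 was 2.18-fold lower in takinib (17.3 CPM in vehicle and 7.92 in takinib). Ctss, which trims the invariant chain, had 3561 and 3506 CPM, and Ifi30, a thiol reductase that unfolds proteins for class II loading, 1541 and 824 (-0.89). Marchf1, the ligase that takes class II molecules off the surface, had 57.5 CPM in vehicle and was 1.75-fold higher in takinib (0.72). Among class I genes, which present peptides to CD8 T cells, H2-K1 had a ratio of 0.14, H2-D1 0.52 and B2m 0.03. In dendritic-like cells 14 of the 34 genes had enough counts, and none passed in either direction.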

How the data were processed

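Droplet single-cell RNA-seq of tumour cells was analysed from 1 vehicle and 1 takinib library. The authors deposited UMI counts, not normalized, for each gene in each barcode. The tables were made with Cell Ranger 4 (vehicle) and 6.1.1 (takinib), per the file headers, while the submitters' processing notes name Cell Ranger 2.1.1, bcl2fastq, STAR 2.0.4b, Subread, featureCounts 1.45 and mm10. The takinib table starts at barcodes of 500 UMIs and the vehicle table at 0. Cells with at least 1000 UMIs, 500 genes and at most 20% mitochondrial UMIs were kept. Doublets were scored with scanpy 1.11.5 (Scrublet). Its own cut marked 0.00373% of takinib cells, under the 0.5% limit set for a working call, so the 6% highest scores were removed there; 314 vehicle and 1607 takinib cells were removed in all. Counts were scaled to 10000 per cell, and 2000 variable genes without the members, 30 components, 15 neighbours and Leiden resolution 1 gave the clusters. A cluster was named from its marker list, with at least 3 markers detected. Macrophage and monocyte lists were treated as 1 lineage there.

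Summed counts per class gave CPM with exact Poisson intervals, and shares have Clopper-Pearson intervals at 95%. Ratios are of takinib over vehicle on log2(CPM + 10), with intervals by the delta method, for genes with at least 50 counts in either library. Thinning to 1000 UMIs was random without replacement with 1 seed. These steps were checked on simulated counts with known answers. All 10 members and 34 listed pathway genes are named by rule, with the 5 genes most alike to the chains over clusters. The values of 1 listed pathway gene are not reported here. The members and lists were chosen with earlier results of these data known. Alternatives changed the cell filter, mitochondrial limit, doublet removal, clustering genes, resolution, naming, origin of vehicle cells, pseudocount (1), thinning (2000) and the limit for a high cell (5 or 20). Taking macrophage-like and monocyte-like cells together was added after the data were seen. Cells of female origin have an Xist UMI and no Y-linked UMI, and male the reverse. Coordinates are from GENCODE M21 (GRCm38).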

Additional observations from a re-analysis of the deposited data

How the results depend on the processing

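Over 48 alternatives to 5 main values, 23 stayed within counting error, 22 moved beyond it and 3 changed sign. In macrophage-like cells the log2 ratio of the class II sum (-2.56) was -2.57 with at least 2000 UMIs and 1000 genes, -2.58 at a mitochondrial limit of 10%, -2.63 with doublets kept, -2.53 with members among the clustering genes, -2.58 at Leiden resolution 0.5, and -1.77 and -2.63 against vehicle cells of female and male origin. Its share of high cells (-41.9 percentage points) was -24.8 and -45.8 by female and male origin, and -45.7 and -32.5 with high set at 5 and 20. The Ciita share (-4.67 points) was -2.80 and -6.24 by origin, -12.6 unthinned and -7.70 thinned to 2000 UMIs. With macrophage-like and monocyte-like cells together, chosen after seeing the data, these 3 were -2.56, -41.9 and -4.68.

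In dendritic-like cells the log2 ratio (0.27) was 0.23 under the stricter cell filter, 0.17 at the mitochondrial limit of 10%, 0.32 with members among the clustering genes, 0.16 against 28 vehicle cells of male origin, and -0.18 with doublets kept. In B-like cells (0.09) it was 0.47 at the mitochondrial limit of 10%, 0.38 and 0.28 against 21 female and 40 male vehicle cells, and -0.18 under the stricter filter (50 and 106 cells). With members among the clustering genes it was -0.44. The class then held 209 vehicle and 1238 takinib cells, and 462 of the takinib cells were plasma-like in the main clustering. The cause of these changes was not tested. Female-origin dendritic-like cells were too few for a value, and B-like cells lost their name with doublets kept and at resolution 0.5. No paired analysis was possible because each group has 1 library. Depth limits the Ciita share, which was larger in both libraries at 2000 UMIs per cell or unthinned.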
